A study of Mus musculus with 3 samples.

Results

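The genes that write, remove and read DNA methylation were examined in satellite cells, the stem cells of skeletal muscle. Members were chosen by symbol, and all 10 were found among the 20308 genes of the table: the methyltransferases Dnmt1, Dnmt3a and Dnmt3b, their cofactor Uhrf1, the dioxygenases Tet1, Tet2 and Tet3, and the methyl-CpG-binding domain proteins Mbd1, Mbd2 and Mbd3. The cells came from hindlimb muscle of mice 3 months old that carried a Pax7-ZsGreen reporter, which marks cells by activity of the satellite cell gene Pax7. Each of the 3 libraries held RNA of about 200000 sorted ZsGreen+ cells, from muscle pooled over several animals. The sample labels give the tibialis anterior as the tissue and the series text gives hindlimb muscles. All libraries belong to 1 group, so no condition was compared, and no sample of undigested muscle or of other cells was measured. Nothing in the labels tells if each library had its own pool of mice; p-values thus measure the spread between these 3 libraries alone, which may be technical.

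In mammals a methyl group is placed on cytosine, mostly where cytosine is followed by guanine (CpG). Dnmt3a and Dnmt3b set new methylation, whereas Dnmt1 copies existing methylation onto the new strand after replication, guided by Uhrf1, which binds hemimethylated CpG. Tet enzymes oxidise methylated cytosine, after which it is diluted by replication or cut out by the glycosylase Tdg. Mbd proteins bind methylated CpG or, in the case of Mbd3, join a repressive complex with little affinity for methylated DNA. In satellite cells these genes have been studied for their part in self-renewal and in the opening of muscle genes.

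Levels are in TPM, shares of transcripts that take length into account, so genes can be compared within a library. Depth is unknown, because TPM does not keep it, and counting intervals are left out. A listed 0 need not mean absence: Rps27, a ribosomal protein gene that every cell uses, was listed at 0 in all 3 libraries. All 12 satellite cell markers on the list were above 1 TPM (limma, Benjamini-Hochberg over 12822 genes), and they summed to between 8245 and 8771 TPM per library. Sdc4 alone held 4272, 4219 and 3915 TPM of these sums in replicates 1, 2 and 3, whereas Pax7 averaged 51.4 TPM. Marker lists of other cells of muscle were counted against the 60.8% of all genes tested that were above 1 TPM. Of the lists, 8 of 8 endothelial, 6 of 8 fibro-adipogenic, 4 of 7 mural, 4 of 6 Schwann cell, 6 of 10 mature fibre and 3 of 9 leukocyte markers were above 1 TPM. The endothelial (100%), fibro-adipogenic (75%) and Schwann cell (66.7%) shares were thus above that of all genes tested, and the mural share (57.1%) was just under it. Of the mature fibre markers 9 were tested and of the leukocyte markers 8, so their counts are 6 of 9 and 3 of 8. The part of RNA from such cells in the levels of the members was not tested. Myh2 of mature fibres and Cd3e of T cells were at 0 in all 3 libraries, each the only such gene of its list. The highest of the same lists were Actn3 of mature fibres at a mean of 80.0 TPM and Cd74 of leukocytes at 153 TPM. Fewer cells of a type and less RNA per cell cannot be told apart in such bulk samples.

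The machinery divided into 6 genes of at least 20 TPM in every library and 4 genes under 10 TPM in every library. Mbd2 and Tet2 led, followed by Mbd3, Tet3, Dnmt3a and Mbd1. Dnmt1 and Dnmt3b, Uhrf1 and Tet1 made up the low group, which thus held Dnmt1 and Uhrf1, the pair that maintains methylation through replication. Of the 10 members, 7 were above 1 TPM and 3 (Dnmt3b, Uhrf1 and Tet1) were not decided, by limma on log2(TPM + 0.1) with Benjamini-Hochberg adjustment over all 12822 genes above 0 in at least 1 library. Among all genes tested, 60.8% were above 1 TPM, so the count by itself does not set the members apart. None was below 1 TPM, a call made for 2.18% of all genes. The median of the members' means was 27.7 TPM, against 11.5 TPM over all genes tested.

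**Figure D1:**
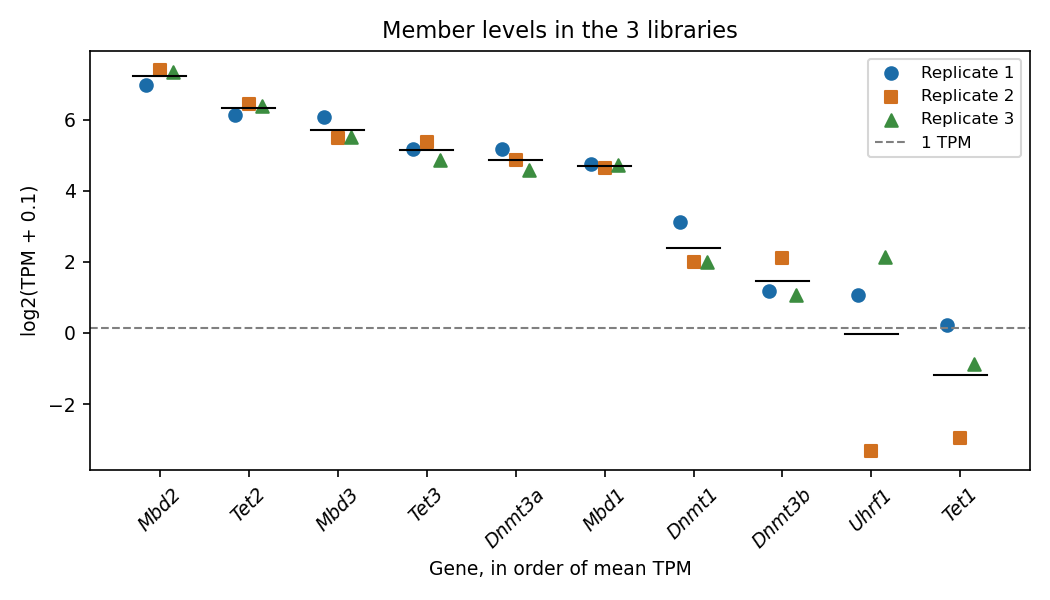
Each member's level as log2(TPM + 0.1) in replicates 1, 2 and 3 (points), with the mean of the 3 libraries on that scale (bar) and 1 TPM (dashed line). The first 6 genes lie far above the line in every library, and the 4 genes on the right lie lower, with Uhrf1 and Tet1 spread across the line.

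Among the writers, Dnmt3a (chromosome 12, 3806007 to 3914443, plus strand, GRCm38) was the main transcript. It was at 35.63, 28.77 and 24.04 TPM in replicates 1, 2 and 3, or 29.5 ± 5.83 TPM (mean ± SD, n = 3), and stood above 69.1% of all genes tested. Every library lay well above 1 TPM (limma adjusted p = 4.01e-08). Its partner in setting new methylation, Dnmt3b (chromosome 2, 153649450 to 153687730, plus strand), was at 2.15, 4.21 and 2.01 TPM, a level left undecided (limma adjusted p = 0.323). Of the 31-base words in the longest Dnmt3b transcript, 15.6% also occur in other annotated genes, most often in Dnmt3c, which makes its level uncertain.

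Dnmt1 (chromosome 9, 20907209 to 20959888, minus strand), the maintenance enzyme, was at 8.67, 3.88 and 3.91 TPM. Replicate 1 was 2.23 times the mean of the other libraries, which were alike. The level was above 1 TPM over the 3 libraries (limma adjusted p = 0.0273), but not without replicate 1 (0.178) or with a pseudocount of 1 (0.0512). Uhrf1 (chromosome 17, 56303321 to 56323486, plus strand), which recruits Dnmt1 to replicated DNA, was at 2.00, 0 and 4.32 TPM. Its libraries ran from a listed 0 to the highest Uhrf1 value in replicate 3, and the level was not decided (limma adjusted p = 0.938). Of its 31-base words, 29.4% recur elsewhere, most often in Gm5648.

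Ratios within each library set the writers apart. Dnmt3a exceeded Dnmt3b 10.7-fold, by 3.42 ± 0.629 on the log2(TPM + 0.1) scale, with differences of 3.99, 2.74 and 3.52 in replicates 1 to 3. Dnmt1 lay below Dnmt3a in 3 of 3 libraries, by differences of -2.03, -2.86 and -2.59, mean -2.49 ± 0.425. The ranges of Dnmt3a and of each of the other writers did not overlap. Of all genes, 60.2% differed from Dnmt3b and 80.4% from Dnmt3a in the same ratio fits, the latter share being the background for Dnmt1. Each ratio was tested with limma in a fit of all genes relative to the second gene (adjusted p = 4.33e-13 for Dnmt3a against Dnmt3b and 0.0161 for Dnmt1 against Dnmt3a). That fit puts the second gene's own spread into every row, so its p-values can come out too small, also with a replicate left out. Shares of all genes that differed come from it too. A contrast of the 2 genes' levels that counts both errors, added after seeing the data, therefore stands beside it (limma adjusted p = 0.0337 and 0.0218). Without replicate 2 the adjusted p for Dnmt1 against Dnmt3a was 0.0532 in the ratio fit. Dnmt1 and Dnmt3b did not differ beyond their spread (0.92 ± 1.04, higher in 2 of 3 libraries, limma adjusted p = 0.449), nor did Dnmt1 and Uhrf1 (2.41 ± 2.74, higher in 2 of 3, limma adjusted p = 0.51). The exact sign-flip permutation p was 0.25 for every pair whose libraries shared a direction, the smallest that 3 libraries allow.

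Promoter windows of Dnmt1 and Uhrf1 are shown because E2F factors, which switch on replication genes, bind sites near TTTCCCGC, TTTCGCGC, TTTGCCGC or TTTGGCGC. These 4 words were searched on both strands of the RefSeq windows (GRCm38.p6, 250 bases before to 50 after each start). Capitals mark matches, 5′ to 3′ on the gene's strand.
Dnmt1, chr9:20952574-20952873, minus strand: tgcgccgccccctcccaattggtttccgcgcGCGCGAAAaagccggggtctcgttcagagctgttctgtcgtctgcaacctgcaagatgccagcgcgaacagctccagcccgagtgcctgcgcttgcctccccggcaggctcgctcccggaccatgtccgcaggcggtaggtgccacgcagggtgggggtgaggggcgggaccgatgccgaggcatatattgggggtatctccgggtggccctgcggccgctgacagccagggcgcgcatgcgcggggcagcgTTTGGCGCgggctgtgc
Uhrf1, chr17:56304063-56304362, plus strand: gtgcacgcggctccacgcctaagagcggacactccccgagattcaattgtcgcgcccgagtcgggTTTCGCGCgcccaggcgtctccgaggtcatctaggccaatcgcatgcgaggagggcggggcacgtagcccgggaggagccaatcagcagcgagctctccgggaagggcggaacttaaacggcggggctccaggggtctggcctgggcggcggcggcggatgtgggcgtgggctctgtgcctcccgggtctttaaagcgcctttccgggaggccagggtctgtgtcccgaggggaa
In the Dnmt1 window the opposite-strand form of TTTCGCGC begins at -219 and TTTGGCGC at 34 relative to that window's start. In the Uhrf1 window TTTCGCGC begins at -185. Both starts are RefSeq starts inside the gene, downstream of the 5′ ends of Dnmt1 (20959888) and Uhrf1 (56303321). Windows of 8 members were in the table, and these 2 genes held a word; Dnmt1 held it in 1 of 3 windows and Uhrf1 in 1 of 2. Over all 27025 genes with a window, 2.6% held one, and so did 5 of 12 replication genes, 2 of 15 germline genes and 0 of 9 close relatives. Per window the share was 2.26% of all 32851 windows and 3.9% of windows of genes above 1 TPM. The words contain CpG and turn up in CpG-rich windows (median 23 CpG, against 7 over all windows). A match describes the letters only, and binding was not measured.

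Among the erasers, Tet2 and Tet3 were abundant and Tet1 was near the bottom. Tet2 (chromosome 3, 133463679 to 133545139, minus strand), which lacks the CXXC domain found in other Tet proteins, was at 70.19, 86.63 and 84.01 TPM, or 80.3 ± 8.83 TPM, above 85.4% of all genes tested. Tet3 (chromosome 6, 83362373 to 83459084, minus strand), known for its role in the zygote, was at 35.87, 41.19 and 29.05 TPM, or 35.4 ± 6.09 TPM. Both were above 1 TPM (limma adjusted p = 1.02e-10 and 1.12e-08), and the ranges of the 2 genes did not overlap. Tet1 (chromosome 10, 62804570 to 62908996, minus strand), prominent in embryonic stem cells, was at 1.07, 0.03 and 0.45 TPM. Its libraries lay between 0.03 and just over 1 TPM, and it was not decided (limma adjusted p = 0.45).

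Tet2 exceeded Tet3 by 0.97, 1.07 and 1.53 on the log2 scale in replicates 1, 2 and 3, a mean of 1.19 ± 0.299 or 2.28-fold (limma adjusted p = 4.01e-05 in the ratio fit, where 84% of all genes differed from Tet3, and 0.00142 in the contrast). Tet2 exceeded Tet1 by 7.52 ± 1.75 and Tet3 exceeded Tet1 by 6.33 ± 1.76, in 3 of 3 libraries each (limma adjusted p = 3.85e-10 and 5.01e-07 in the ratio fit, 0.00318 and 0.00536 in the contrast). Of all genes, 60.2% differed from Tet1 in that ratio fit. Tet1 was so low that its SD changed with the pseudocount, from 2.47 at 0.01 to 0.50 at 1, so the folds against it are imprecise. For Tet3 against Tet1 the adjusted p was 0.0695 without replicate 3.

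The promoter windows of Tet2 and Tet1 are shown for their CpG content, with each CpG in capitals (RefSeq, GRCm38.p6).
Tet2, chr3:133544341-133544640, minus strand: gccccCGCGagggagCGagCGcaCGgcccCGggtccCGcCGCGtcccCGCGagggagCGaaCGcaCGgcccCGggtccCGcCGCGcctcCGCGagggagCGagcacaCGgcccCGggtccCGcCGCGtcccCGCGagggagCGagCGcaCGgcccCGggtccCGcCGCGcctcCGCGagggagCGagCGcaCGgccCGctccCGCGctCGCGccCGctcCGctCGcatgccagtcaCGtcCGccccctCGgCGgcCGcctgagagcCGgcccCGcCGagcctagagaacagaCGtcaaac
Tet1, chr10:62887275-62887574, minus strand: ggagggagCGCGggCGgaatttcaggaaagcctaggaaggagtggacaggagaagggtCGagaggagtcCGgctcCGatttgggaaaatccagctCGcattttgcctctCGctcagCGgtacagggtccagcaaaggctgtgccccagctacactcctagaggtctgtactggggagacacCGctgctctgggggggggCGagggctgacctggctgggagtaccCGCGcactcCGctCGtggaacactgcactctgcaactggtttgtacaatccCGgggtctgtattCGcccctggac
The Tet2 window holds 57 CpG and outnumbers 99.8% of all windows. The Tet1 window holds 17, more than 68.6% of all windows, and the Tet3 window 22. These were the only windows listed for Tet1 and Tet3, and unlike the Tet2 window they lie at starts well inside the gene. CpG content at the 5′ ends of Tet1 (62908996) and Tet3 (83459084) was not counted, so the windows do not compare the main promoters. Both windows of Dnmt3a near its first start hold 46 and 47. The 13 windows of the 8 members had a median of 22 CpG, the same as windows of genes above 1 TPM (median 22).

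**Figure D2:**
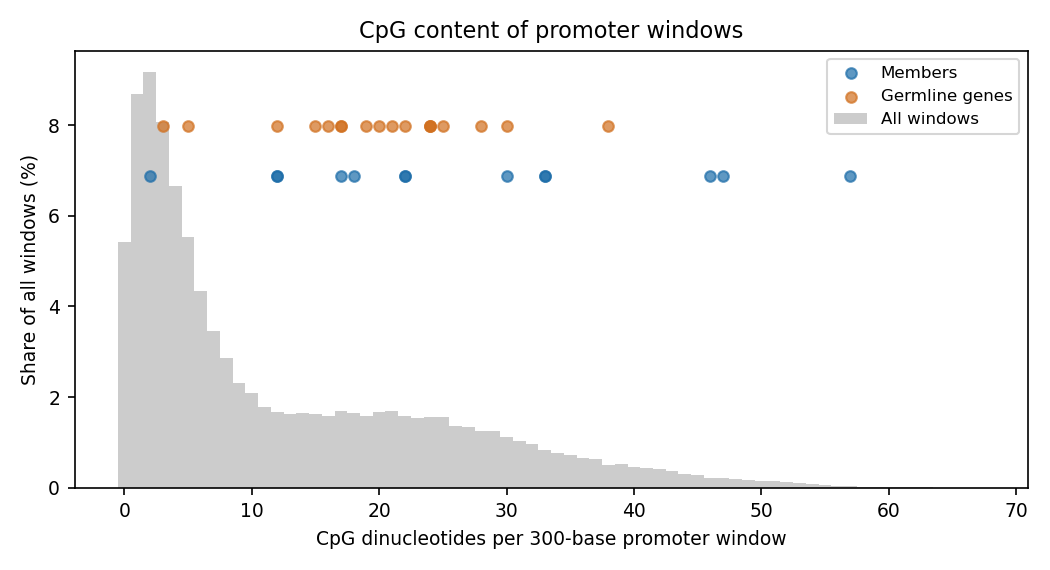
CpG dinucleotides per 300-base promoter window (x axis) for all 32851 RefSeq windows (grey bars, share of windows in percent). Points are windows of members (blue) and of germline genes (orange), without chromosome 18, and their height carries no value. Members range from 2 to 57 CpG, and most windows of both lists lie to the right of the median of all windows, 7.

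Among the readers, Mbd2 was the highest of all 10 members. Mbd2, which binds methylated CpG and recruits the NuRD remodelling complex, was at 125.18, 168.75 and 162.35 TPM, or 152 ± 23.5 TPM, above 91.9% of all genes tested (limma adjusted p = 1.62e-11). Replicate 1 was the lowest library. Mbd3 (chromosome 10, 80392539 to 80399550, minus strand), which takes the place of Mbd2 in other NuRD complexes, was at 67.51, 44.97 and 45.63 TPM, or 52.7 ± 12.8 TPM (limma adjusted p = 1.86e-09). Here replicate 1 was the highest. Mbd1, which binds methylated CpG and carries CXXC domains, was at 26.65, 25.03 and 26.32 TPM, or 26 ± 0.856 TPM (limma adjusted p = 5.86e-08). Mbd1 and Mbd2 lie on chromosome 18.

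The 3 readers were separated in every library, with no overlap of their ranges. Mbd2 exceeded Mbd1 by 2.53 ± 0.271 on the log2 scale, or 5.78-fold (limma adjusted p = 6.10e-08 in the ratio fit and 3.55e-06 in the contrast). Mbd3 exceeded Mbd1 by 0.99 ± 0.302, or 1.99-fold (limma adjusted p = 0.00147 and 0.0127). Mbd3 lay below Mbd2, by differences of -0.89, -1.91 and -1.83 in replicates 1, 2 and 3 (limma adjusted p = 3.48e-05 and 2.13e-05). In the ratio fits, 76% of all genes differed from Mbd1 and 95.9% from Mbd2. The gap was thus smallest in replicate 1, where Mbd2 was low and Mbd3 high.

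Over the 10 ratios within families or within a reaction, 8 passed in both fits and had ranges that did not overlap. The 2 that did not pass were Dnmt1 against Dnmt3b and Dnmt1 against Uhrf1. In the ratio fits, between 21.1% (relative to Uhrf1) and 95.9% (relative to Mbd2) of all genes differed from the reference, so such calls are common. The share of all genes was not counted for the contrast or for ranges without overlap, so those counts do not set the members apart.

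**Figure D3:**
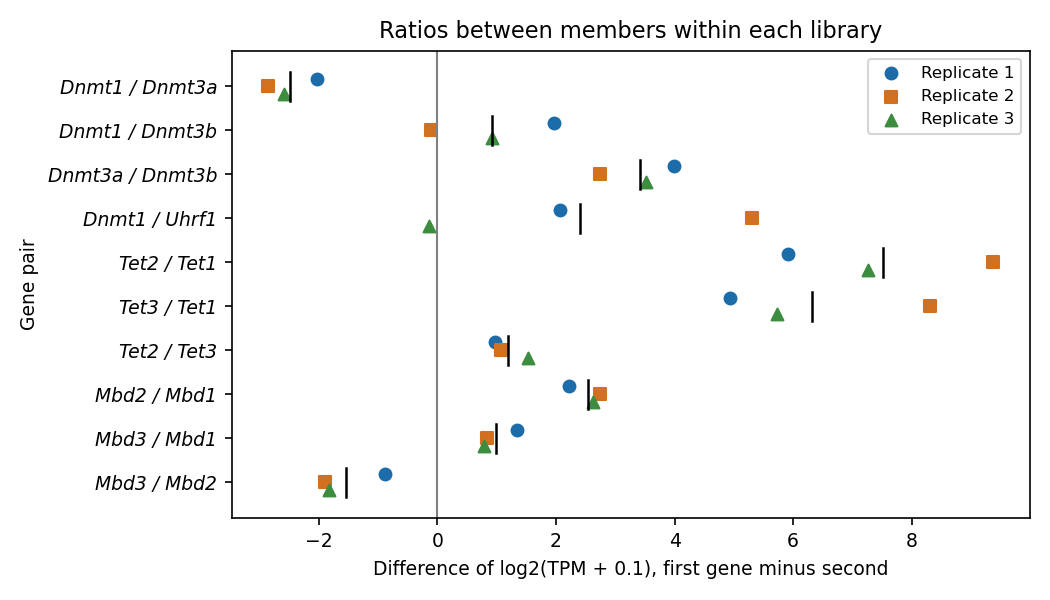
Difference of log2(TPM + 0.1) between the genes of each of the 10 pairs (x axis, first gene minus second) in replicates 1, 2 and 3 (points), with the mean (bar) and no difference (grey line). Points lie on 1 side of the line for 8 pairs, and on both sides for Dnmt1 / Dnmt3b and Dnmt1 / Uhrf1.

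In the order of mean levels, the first 4 positions (Mbd2, Tet2, Mbd3, Tet3) were the same in each of the 3 libraries. Mbd2 exceeded its neighbour Tet2 by 0.91 ± 0.0705 (limma adjusted p = 0.000276 in the ratio fit and 0.0005 in the contrast). Tet2 exceeded Mbd3 by 0.63 ± 0.495 (limma adjusted p = 0.022 and 0.0195), but only by 0.06 in replicate 1, and without replicate 2 or 3 the adjusted p was 0.23 and 0.244. Mbd3 and Tet3 differed by 0.56 ± 0.399 and passed in the ratio fit (limma adjusted p = 0.0301) but not in the contrast (0.0731), nor in the ratio fit without replicate 1 (0.308). Tet3, Dnmt3a and Mbd1 could not be ordered: their ranges overlapped, with limma adjusted p of 0.373 and 0.541 between neighbours. Mbd1 exceeded Dnmt1, the next gene down, by 2.33 ± 0.625 or 5.03-fold (limma adjusted p = 3.91e-05 and 0.037), at the step between the high and the low group. Order and groups were drawn from these same values, so p-values between neighbours do not test the order or the division. Below it, Dnmt1, Dnmt3b, Uhrf1 and Tet1 could not be ordered by neighbours (limma adjusted p between 0.449 and 0.708). In all, 4 of 9 neighbouring pairs passed in the ratio fit and 3 in the contrast. The background shares for the 4 in the ratio fit were 92.4% of all genes relative to Tet2, 87% relative to Mbd3, 84% relative to Tet3 and 59.2% relative to Dnmt1. No such share was counted for the contrast.

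Summed by function, readers exceeded erasers and erasers exceeded writers in every library. The writers summed to 46.45, 36.86 and 29.96 TPM, the erasers to 107.13, 127.85 and 113.51 TPM and the Mbd readers to 219.34, 238.75 and 234.3 TPM. The eraser sum was 3.19 ± 0.78 times the writer sum, at 2.31, 3.47 and 3.79 in replicates 1, 2 and 3. Each family rested on 1 gene for most of its sum: Dnmt3a gave 78.3% ± 1.78 of the writers, Tet2 69.1% ± 4.40 of the erasers and Mbd2 65.7% ± 7.49 of the readers. Dnmt1 gave 14.1% ± 4.17 of the writer sum. Transcript sums do not measure enzyme amounts or methylation, which were not assayed.

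**Figure D4:**
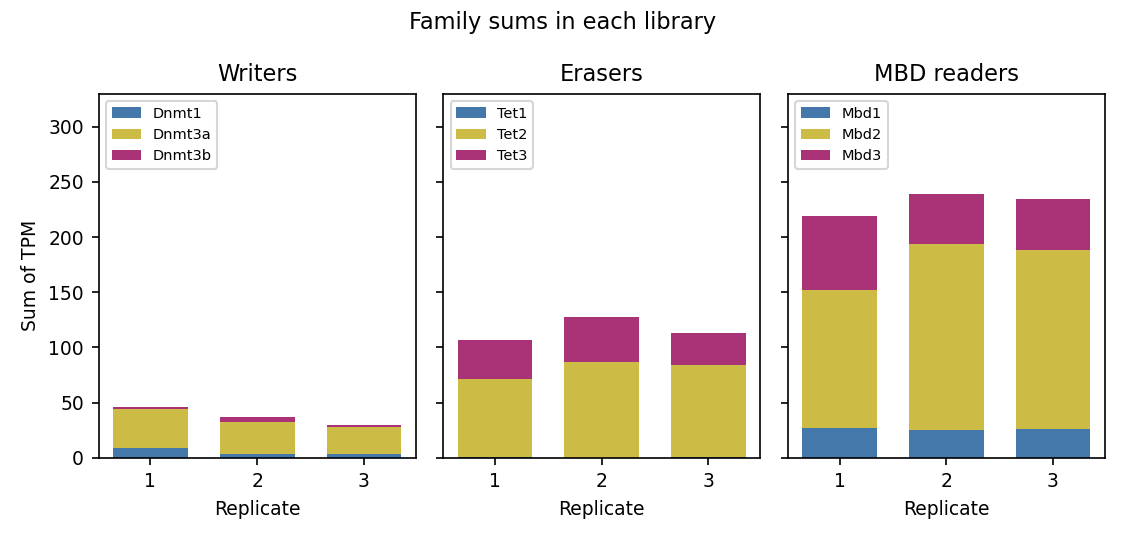
Summed TPM (y axis, from 0) of writers, erasers and Mbd readers in replicates 1, 2 and 3, with each bar divided by gene. Readers reach 219 to 239 TPM, erasers 107 to 128 TPM and writers 30 to 46.5 TPM, and 1 gene fills most of each bar.

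The SD of log2(TPM + 0.1) was 0.05 for Mbd1, 0.16 for Tet2, 0.25 for Tet3, 0.28 for Dnmt3a and 0.33 for Mbd3, against a median of 0.44 over the 5220 genes with means of 10 to 100 TPM. Only 1.23% of those genes had a smaller SD than Mbd1. Mbd2, at 0.23, was a little above the median of 0.18 over the 1365 genes of 100 to 1000 TPM. Dnmt1 at 0.65 and Dnmt3b at 0.57 were below the median of 2.32 over the 4553 genes of 1 to 10 TPM, where values of 0 are frequent, and Uhrf1 at 2.90 was above it. With 3 libraries each SD can rest on 1 of them, and each member's SD was over 1.5 times lower without some library. Leaving out the most distant of 3 values lowers the SD of any gene. The share of all genes with such a fall was not counted, so it does not set the members apart. Without replicate 1 it was 0.0077 for Dnmt1, 0.015 for Mbd3, 0.031 for Tet2, 0.039 for Mbd2 and 0.18 for Dnmt3a. For these 5 genes the SD was lowest without replicate 1. Dnmt3a, however, fell almost evenly from replicate 1 to 3, at 35.63, 28.77 and 24.04 TPM. Without replicate 2 the SD was 0.013 for Mbd1, 0.066 for Dnmt3b, 0.759 for Uhrf1 and 0.77 for Tet1, and without replicate 3 it was 0.14 for Tet3.

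Replicate 1 also stood apart for a partner. The NuRD deacetylase Hdac1, named after its values were seen, was at 128.62, 63.08 and 53.49 TPM. Replicate 1 was 2.21 times the mean of the other libraries for this gene. The endothelial list summed to 1924, 1572 and 2876 TPM, the fibro-adipogenic list to 2456, 2386 and 2164 TPM and the leukocyte list, in which Cd3e was at 0 throughout, to 233, 284 and 237 TPM in replicates 1 to 3. Most of each endothelial sum came from Fabp4, at 1749.98, 1355.83 and 2587.09 TPM in replicates 1, 2 and 3. These endothelial sums thus largely follow 1 gene, and the amount of endothelial cells per library was not tested. Single markers went both ways. Of the fibro-adipogenic markers 4 of 8 were highest and 2 lowest in replicate 1, of the leukocyte markers 2 of 9 were highest and 4 lowest, and of the endothelial markers 0 of 8 were highest and 4 lowest. Pdgfra at 4.98, 0.11 and 0.06 TPM and Cd68 at 25.44, 0 and 0 TPM were high in replicate 1, whereas Ly6a at 23.39, 41.22 and 36.24 TPM and Lyz2 at 54.19, 86.43 and 69.55 TPM were low there; these 4 were picked out with their values known. The part of such cells in the higher values of Dnmt1 and Hdac1 in replicate 1 was not tested. Of the 10 members, 5 were highest in replicate 1, 4 in replicate 2 and 1 in replicate 3. Among the 32 members, close relatives and NuRD genes together, 13 were highest in replicate 1.

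Close relatives of the members gave a mixed picture, with 4 of 10 above 1 TPM (limma, Benjamini-Hochberg), 5 not decided and 1 at 0 in all libraries. Of all genes tested, 60.8% were above 1 TPM, and 9 of these relatives were tested. Over the whole table the share was 38.4%. The list median was 3.86 TPM. Uhrf2, a relative of Uhrf1 that does not replace it in maintenance, was at 49.49, 53.47 and 44.70 TPM, above every Uhrf1 value. The zinc finger proteins Zbtb4 and Zbtb33 (Kaiso), which also bind methylated DNA, averaged 13.3 ± 4.33 and 11.6 ± 3.16 TPM. Not decided were Zbtb38 at 7.90, 4.25 and 0.72 TPM, Mbd6 at 3.43 ± 1.49 TPM, Mbd5 at 3.06 ± 0.486 TPM and the repair glycosylase Mbd4 at 2.55 ± 1.12 TPM. The tRNA methyltransferase Trdmt1 was at 0, 2.25 and 3.00 TPM, likewise undecided. Dnmt3l, the germ cell cofactor of Dnmt3a, was listed at 0 in all 3 libraries.

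Of 12 partners in maintenance and repression, 10 were above 1 TPM (limma, Benjamini-Hochberg, against 60.8% of all genes tested and 38.4% of the table), 1 was not decided and 1 was at 0 throughout; the median was 14.5 TPM. The replication clamp Pcna, to which Dnmt1 binds, averaged 393 ± 25.2 TPM, though 38.0% of its 31-base words occur in other genes, most often Pcna-ps2. The deubiquitinase Usp7, which acts on Dnmt1 and Uhrf1, averaged 192 ± 14.0 TPM, and the corepressor Trim28 97.8 ± 9.68 TPM. Of 15 replication genes, 14 were tested and 10 were above 1 TPM, against 60.8% of all genes tested. Over the list the share was 66.7%, against 38.4% of the table. The 1 gene below was the mitotic kinase Cdk1, at 0, 0.12 and 0 TPM. The median of the replication genes was 8.97 TPM, above each of the Dnmt1 values. The highest were the helicase subunits Mcm7 at 21.3, 44.17 and 30.56 TPM, with 37.6% of its words shared, Mcm6 at 20.1 ± 4.23 TPM and Mcm4 at 14.6 ± 5.26 TPM.

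Among partners of demethylation, 11 of 18 were above 1 TPM (limma, Benjamini-Hochberg) and 3 were at 0 throughout; the median was 12.2 TPM. The 3 at 0 were not tested. The count is thus 11 of 15 tested genes, against 60.8% of all genes tested. Over the whole list it is 61.1%, against 38.4% of the table. The list was led by Gadd45a at 1062 ± 186 TPM, Gadd45b at 681 ± 120 TPM and Gadd45g at 174 ± 18.1 TPM, growth arrest genes induced by stress that have been linked to demethylation. Tdg, which removes the oxidised bases that Tet enzymes make, was at 87.45, 107.15 and 151.8 TPM, and was named after its values were seen. All 3 libraries were thus above any value of Tet3. Because cells were digested and sorted, and no undigested sample was measured, levels of stress genes before sorting are unknown.

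NuRD, the remodelling and deacetylase complex that contains Mbd2 or Mbd3, had a median of 106 TPM. It was the only list of the 8 related lists with every gene above 1 TPM (12 of 12 by limma with Benjamini-Hochberg adjustment). The satellite cell and endothelial marker lists also had every gene above 1 TPM, against 60.8% of all genes tested. The histone-binding subunit Rbbp7 averaged 445 ± 74.7 TPM, with 15.3% of its 31-base words shared, the ATPase Chd4 292 ± 23.2 TPM and the deacetylase Hdac2 169 ± 15.1 TPM. Of 6 proteins with CXXC domains, which bind CpG without methylation, 5 were above 1 TPM, led by the demethylase Kdm2a at 88.4 ± 5.45 TPM, the Set1 complex subunit Cxxc1 at 35.19, 73.25 and 55.85 TPM and the methyltransferase Kmt2a at 41.9 ± 2.12 TPM.

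Genes that supply the reactions were also measured. By limma with Benjamini-Hochberg adjustment 12 of 17 passed 1 TPM, or 12 of the 16 tested, against 60.8% of all genes tested. Over the list the share was 70.6%, against 38.4% of the table. The median gene was at 13.5 TPM. Mat2a, which makes the methyl donor S-adenosylmethionine, was at 902.75, 1007.73 and 907.81 TPM, or 939 ± 59.2 TPM, with 12.6% of its words shared. Ahcyl1, a relative of the hydrolase that clears the spent donor, averaged 152 ± 32.4 TPM, and that hydrolase, Ahcy, averaged 140 ± 26.5 TPM. Of the 31-base words of Ahcy, 79.4% recur in other genes. The liver form Mat1a was listed at 0 in all 3 libraries, and was named after its values were seen.

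Germline genes whose promoters are known to be silenced by DNA methylation in body cells were mostly listed at 0, which in this table need not mean absence. Of 17 such genes, 15 had no value above 0 in any library and were not tested, so no setting could place them above 1 TPM. Of the 2 tested, 0 were above 1 TPM by limma, also under each alternative setting that was run. The list median was 0 TPM. Over the whole table, 7486 of 20308 genes were at 0 in all libraries. The exceptions were Dppa3, at 10.45, 0 and 0 TPM, and Stag3, at 0, 2.55 and 0 TPM, neither decided, and 31.8% of the 31-base words of Dppa3 recur in other genes. Dazl, an RNA-binding protein of germ cells, was listed at 0 in all 3 libraries. Its promoter window is shown with each CpG in capitals (RefSeq, GRCm38.p6), as an example of a CpG-rich window of a gene listed at 0.
Dazl, chr17:50293571-50293870, minus strand: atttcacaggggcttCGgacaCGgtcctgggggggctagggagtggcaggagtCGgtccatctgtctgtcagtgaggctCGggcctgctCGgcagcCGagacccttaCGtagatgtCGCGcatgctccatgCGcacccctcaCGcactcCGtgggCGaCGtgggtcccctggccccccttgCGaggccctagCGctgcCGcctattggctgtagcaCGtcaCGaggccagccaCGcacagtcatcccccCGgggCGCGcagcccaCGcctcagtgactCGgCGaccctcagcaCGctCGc
It holds 28 CpG, more than 85.8% of all windows, and the 18 windows of 15 germline genes had a median of 20.5 CpG. That is close to the median of 22 for windows of genes above 1 TPM. Methylation itself was not measured.

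**Figure D5:**
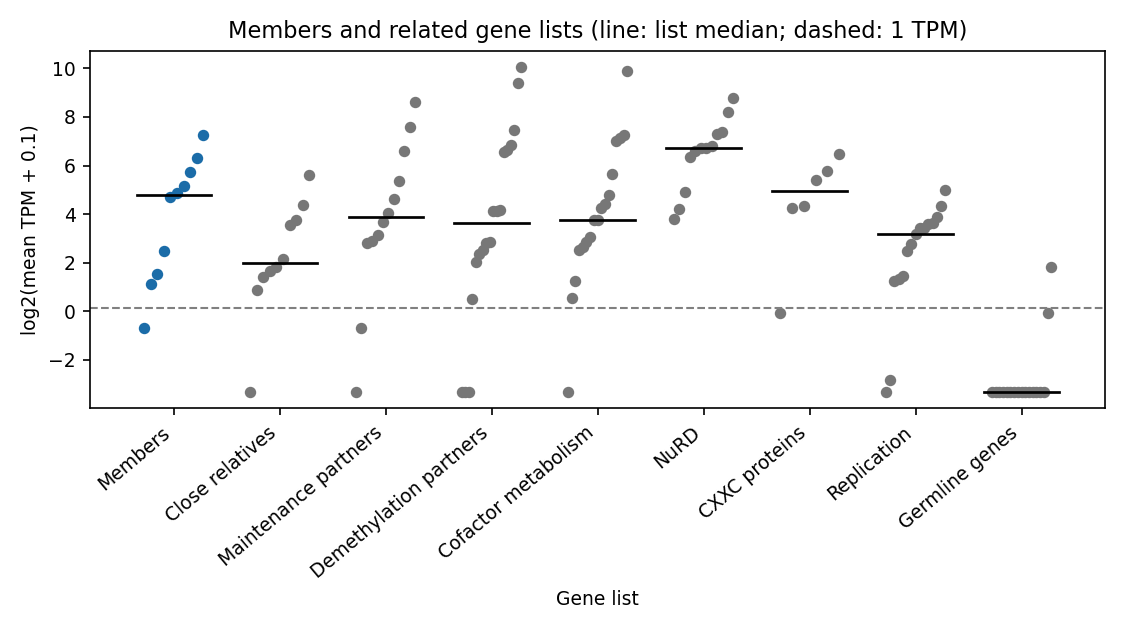
Mean level as log2(mean TPM + 0.1) of each gene (points, y axis) in the members (blue) and 8 related lists (grey), with the list median (bar) and 1 TPM (dashed line). All NuRD genes lie above the line, and 15 of 17 germline genes lie at the bottom, where the mean is 0 TPM.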

How the data were processed

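Per the labels, a Picopure kit gave the RNA of the sorted cells and libraries followed Illumina protocols. Per the submitters' processing notes the build was mm10 and the tools CASAVA 1.8, Bowtie 0.12.9 and RSEM 1.2.3; the notes used here do not give their roles, the annotation, the strand or the read length. The authors deposited 1 table of TPM, whose name marks it as renormalised and without mt genes; columns sum to between 999999.85 and 1000000.30, and 0 symbols start with mt-.

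Tests used log2(TPM + 0.1), on which folds of low genes come out too small, and limma 3.58.1 in R 4.3.3: an intercept fit against 1 TPM over all genes above 0 in at least 1 library, two-sided, with a variance trend, Benjamini-Hochberg adjustment and a threshold of 0.05. Ratios were fitted likewise for all genes relative to the second gene, with an exact two-sided sign-flip permutation test. Both fits were run on simulated data, with the same SD for every gene in the ratio test and SDs shuffled between genes in the level test. In the real data the SD falls with level, so these runs cannot tell how the fits do for low genes. Pseudocounts of 0.01 and 1, a minimum mean of 0.1 TPM, upper-quartile scaling, no variance trend and leaving out each replicate were tried.

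Positions and transcripts are from GENCODE M21 (GRCm38, the assembly of mm10). Exons of Dnmt3a overlap a gene on the opposite strand over 0.799% of their length and those of Tet2 over 0.255%. Genes named are, by rule, the members, their close relatives (1 of which is counted in its list but not reported here) and the 3 highest of each other related list; all others, such as Rps27, Cdk1, Myh2 and Cd3e, were named after their values were seen. The members, lists and rules were chosen with earlier results of these data known. Genes of like pattern were not sought, since 3 libraries of 1 group give none to rank by.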

Additional observations from a re-analysis of the deposited data

How the results depend on the processing

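No paired analysis was possible because all 3 libraries belong to 1 group. The count of members above 1 TPM was 7, with 6 at a pseudocount of 1 and 8 without the variance trend, and between 6 and 7 when a replicate was left out. Dnmt3b passed without the variance trend (limma adjusted p = 0.038). The count of neighbouring members that differed fell from 4 to 2 without the variance trend, and was 3 when any 1 replicate was left out. Between Dnmt1 and Dnmt3a the difference ran from -2.72 to -2.31 when a replicate was left out, and between Tet3 and Tet1 from 5.34 to 7.02. No tested direction of a pair that passed was reversed in any setting run. Upper-quartile scaling moved the median of all genes by at most 0.021 on the log2 scale. TPM keeps no depth, which limits what can be said of genes of a few TPM such as Uhrf1 and Tet1. With 2 libraries left, limma's pooled variance carries most of the test.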
